A study of Mus musculus with 8 samples.

Results

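The liver releases protein hormones, called hepatokines, that act on fat, muscle, brain and the liver itself. Of 9 hepatokine genes chosen by name, 8 were measured by a probe set that names no other gene, among 30637 genes tested. They were Fgf21, Angptl4, Angptl8, Igfbp1, Igfbp2, Lect2, Fetub and Ahsg, each with 1 probe set. The ninth, Gdf15, had no such probe set in the annotation used and was not analysed here. The livers came from male C57BL/6 mice that had all eaten a high fat diet for 13 weeks, a model of raised blood cholesterol. Of the mice, 4 had received 5 injections into the abdominal cavity of anti-miR-128-3p, which blocks the microRNA miR-128-3p, and 4 had received a control. They are called treated and control livers below. The labels call the control injection a vehicle in 1 field and a control in others, and a treatment field names miR-128-3p itself in place of its inhibitor. The groups follow the sample titles. The age of the mice is not in the labels, and the comparison is between injections under 1 diet.

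Hepatokines report the metabolic state of the liver to other organs. FGF21 is released during fasting and cellular stress and signals through FGF receptors with the co-receptor beta-klotho. ANGPTL4 and ANGPTL8 restrain lipoprotein lipase, the enzyme that frees fatty acids from circulating triglyceride, and do so in opposite feeding states, since fasting raises ANGPTL4 and feeding raises ANGPTL8. IGFBP1 and IGFBP2 carry insulin-like growth factors in plasma, and insulin represses the Igfbp1 gene. LECT2 was named as an attractant of neutrophils and is a beta-catenin target in mouse liver, and the fetuins AHSG and FETUB are abundant plasma glycoproteins with cystatin domains.

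The microRNA that the inhibitor binds is shown here with its seed, bases 2 to 8, in capitals. RefSeq's table for the mouse assembly GRCm38.p6 places the 21 bases at chr1:128202404-128202424 on the plus strand within Mir128-1 and at chr9:112118644-112118664 on the minus strand within Mir128-2.
miR-128-3p: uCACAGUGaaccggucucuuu
Target sites of this seed in the hepatokine messengers were not analysed here.

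Promoter sequence was in the same RefSeq tables for 7 of the 8 measured genes, all but Angptl4. The 250 bases before each start were searched on both strands for short motifs of factors known to act on hepatokine genes. TGATGNAA, the core of the element that ATF4 and its C/EBP partners bind under amino acid shortage, was in the windows of Fgf21 and Angptl8 and in 3.45% of 32851 promoters. CTTTGAT, the motif of the TCF partners of beta-catenin, was in that of Lect2 and in 3.21% of promoters. AAACA, the core that FoxO factors recognise, was in those of Igfbp1, Igfbp2, Lect2, Fetub and Ahsg, but also in 46.4% of all promoters. GTAAACA, a longer forkhead motif that contains AAACA, was found for Fetub and in 3.17% of promoters. AGGTCA, the nuclear receptor core site, was found for 0 of the 7 genes against 14% of promoters, and 2 copies of it 1 base apart, the form PPAR-alpha binds, for 0 of the 7 against 0.0335%. A match describes letters in a window and is not evidence of binding. The 4 windows of 60 bases below are shown because they hold the motif for which each gene is best known or, for Angptl8, the motif it shares with Fgf21. All are written 5′ to 3′ on the gene's own strand with the match in capitals, and positions count back from -1 at the base before the start.
Fgf21: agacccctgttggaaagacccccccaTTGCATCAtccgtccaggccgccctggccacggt
Angptl8: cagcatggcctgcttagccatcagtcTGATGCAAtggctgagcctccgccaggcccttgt
Igfbp1: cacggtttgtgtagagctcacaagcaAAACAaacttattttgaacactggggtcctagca
Lect2: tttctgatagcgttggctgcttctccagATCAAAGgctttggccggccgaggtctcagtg
The Fgf21 window is chr7:45615596-45615655 (GRCm38.p6, minus strand), and its match, which reads TGATGNAA on the opposite strand, lies at -139 to -132. The Angptl8 window is chr9:21835354-21835413 (plus strand), with the match at -130 to -123. The Igfbp1 window is chr11:7197655-7197714 (plus strand), with AAACA at -106 to -102. The Lect2 window is chr13:56548539-56548598 (minus strand), with CTTTGAT on the opposite strand at -32 to -26.

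Signals are RMA values on a log2 scale, so a difference of 1 is a doubling. The median gene signal was 5.04 to 5.12 on the 8 arrays, the medians of 5222 negative control rows were 4.32 to 4.48, and their 95th percentile reached 7.53. Replicates were taken as separate mice from the numbered titles, which do not state it outright, and if they were not, the p-values cover technical spread only. Liver identity was clear: 11 hepatocyte markers averaged 12.81 to 13.03 in treated and 12.93 to 12.98 in control livers. Markers of other cells varied more. Control liver 1 had a neutrophil score (the mean over 11 markers of the signal minus each gene's mean over the 8 arrays) of 1.41, against -0.38 to -0.13 in the other control livers, although all 11 markers averaged below the negative controls' 95th percentile. Treated liver 3 had the highest stellate cell score, 0.89, treated liver 1 the highest Kupffer cell and macrophage score, 0.73, and control liver 3 the lowest of these, -0.90. In whole liver, fewer cells of a type and less RNA per cell cannot be told apart.

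Across the 8 hepatokines, 4 had a higher and 4 a lower mean in treated livers. Their median log2 difference was -0.01, against 15033 higher and 15604 lower genes among all those tested and a median of -0.0017. The hepatokine median was -0.09 without treated liver 1 and 0.05 without treated liver 4. None passed limma with Benjamini-Hochberg adjustment over all genes at 0.05, and 0% of all genes did, the smallest adjusted p over all genes being 0.195. At an unadjusted limma p under 0.05, 1 of the 8 was counted, Angptl4, which was lower in treated livers. The background at that level was 7.63% of genes in either direction, 3.37% lower and 4.26% higher. No hepatokine had groups that did not overlap, against 1.89% of genes lower and 2.52% higher in all treated livers.

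The 2 largest differences were those of Fgf21 and Angptl4, both lower in treated livers, although Fgf21 was under the negative controls' 95th percentile on all 8 arrays. Angptl4, the lipoprotein lipase inhibitor induced by fasting and fatty acids, had signals of 8.35, 8.46, 9.11 and 8.45 in treated livers 1 to 4, against 9.11, 9.0, 9.44 and 8.87 in control livers 1 to 4. Treated livers 1, 2 and 4 lay below every control liver, while treated liver 3 lay among them. The means were 8.59 ± 0.35 in treated and 9.10 ± 0.24 in control livers (SD, n = 4 each), a log2 difference of -0.51 ± 0.18 (SE) or 0.702-fold with a 95% interval of 0.531 to 0.927. The limma p was 0.0183 unadjusted and 0.542 adjusted over all genes, and the exact two-sided permutation p over the 70 assignments of livers was 0.114, where 0.0286 is the smallest possible. Without treated liver 3, which also had the highest stellate cell score, the difference was -0.68, and without control liver 3 it was -0.40. Stellate cell markers were higher in 8 of 12, with a median of 0.21 and scores of -0.16 to 0.89 in treated and -0.32 to -0.15 in control livers, and their part in the Angptl4 difference was not tested.

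Fgf21 had signals of 6.26, 5.32, 6.33 and 6.19 in treated livers, against 7.06, 6.26, 7.11 and 5.82 in control livers. The control livers fell into a higher pair, 1 and 3, and a lower pair, 2 and 4, and treated liver 2 was the lowest of all 8. The means were 6.02 ± 0.47 in treated and 6.56 ± 0.63 in control livers (SD, n = 4 each). The log2 difference of -0.54 ± 0.33 (0.689-fold, 95% interval 0.413 to 1.15) did not pass (limma adjusted p = 0.771, exact permutation p = 0.257). It depended on single livers, being -0.79 without control liver 4 and -0.30 without treated liver 2. The gene's signal was under the 95th percentile of the negative control rows on all 8 arrays, so part of it may be background and a fold change would then be understated.

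Angptl8, the feeding-induced gene whose product restrains lipoprotein lipase, showed no difference beyond its spread but varied more from liver to liver than nearly all other genes. Its signals were 9.24, 9.68, 8.60 and 8.16 in treated livers, against 9.23, 9.70, 8.40 and 8.48 in control livers. In each group livers 1 and 2 were high and livers 3 and 4 low, so that the spread lay within the groups. Whether equal numbers mark a shared condition was not tested. The means were 8.92 ± 0.67 in treated and 8.95 ± 0.62 in control livers (SD, n = 4 each). The log2 difference was -0.03 ± 0.38 (0.979-fold, 95% interval 0.541 to 1.77, limma adjusted p = 0.995, exact permutation p = 0.943). The interval holds changes of that size in either direction, so the p does not show equal levels, and the sign turned with single livers left out (-0.28 without treated liver 2, 0.22 without treated liver 4).

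Igfbp1, whose gene insulin shuts off through FoxO1, was equally uneven. Its signals were 10.31, 8.98, 10.41 and 9.61 in treated livers, against 9.81, 9.18, 10.53 and 9.78 in control livers. Liver 2 was the lowest and liver 3 the highest in both groups, and the groups overlapped throughout. The means were 9.83 ± 0.66 in treated and 9.82 ± 0.55 in control livers (SD, n = 4 each), a log2 difference of 0.0037 ± 0.36 (1.00-fold, 95% interval 0.573 to 1.76, limma adjusted p = 0.999). Without control liver 2 the difference was -0.21 and without treated liver 2 it was 0.29.

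Igfbp2, a binding protein made by hepatocytes and raised by leptin in mice, had signals of 11.39, 10.61, 10.77 and 10.58 in treated livers, against 9.82, 10.52, 10.69 and 11.05 in control livers. Treated liver 1 was the highest and control liver 1 the lowest of the 8, with the other 6 in a narrower band. The means were 10.84 ± 0.38 in treated and 10.52 ± 0.52 in control livers (SD, n = 4 each). The log2 difference of 0.32 ± 0.26 (1.25-fold, 95% interval 0.825 to 1.89) did not pass (limma adjusted p = 0.847, exact permutation p = 0.4). It was 0.09 without control liver 1, the liver with the high neutrophil score, and 0.50 without control liver 4. Neutrophil markers were lower in 10 of 11, with a median of -0.27 and scores of -0.36 to -0.03 in treated and -0.38 to 1.41 in control livers, and their part in it was not tested.

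Lect2, which binds the receptors MET and TIE1, had signals of 9.18, 9.62, 9.01 and 9.43 in treated livers, against 9.32, 9.59, 9.30 and 9.37 in control livers. Liver 2 was the highest of each group, and the treated livers spread to both sides of the control livers. The means were 9.31 ± 0.27 in treated and 9.39 ± 0.14 in control livers (SD, n = 4 each), a log2 difference of -0.08 ± 0.13 (0.944-fold, 95% interval 0.771 to 1.16, limma adjusted p = 0.942). Without treated liver 3 it was 0.02 and without treated liver 2 it was -0.19.

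The fetuin genes were the steadiest of the set. Ahsg encodes fetuin-A, which keeps calcium phosphate in solution in plasma and can inhibit the insulin receptor. It had signals of 13.78, 13.73, 13.79 and 13.72 in treated livers, against 13.71, 13.74, 13.76 and 13.75 in control livers. All 8 values lay between 13.71 and 13.79, and the log2 difference was 0.02 ± 0.04 (1.01-fold, 95% interval 0.949 to 1.08, limma adjusted p = 0.973). The signal lay near the top of the arrays' range, where the highest signal of any gene was 14.0, and whether saturation narrows these values was not tested.

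Fetub encodes fetuin-B, an inhibitor of the egg-coat protease ovastacin that is also made by the liver. Its signals were 11.96, 11.93, 11.97 and 11.91 in treated livers, against 12.04, 11.55, 11.95 and 11.98 in control livers. Control liver 2 was low, and the other 7 livers lay close together. The means were 11.94 ± 0.03 in treated and 11.88 ± 0.22 in control livers (SD, n = 4 each), with a log2 difference of 0.06 ± 0.10 (1.04-fold, 95% interval 0.892 to 1.22, limma adjusted p = 0.951). Without control liver 2 it was -0.05. In RefSeq's order on GRCm38.p6, Ahsg and Fetub are neighbours on chromosome 16, followed by Hrg, Kng2 and Kng1, all genes of plasma proteins with cystatin domains. The log2 differences of these neighbours were -0.11 for Hrg, 0.03 for Kng2 and 0.06 for Kng1.

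**Figure D1:**
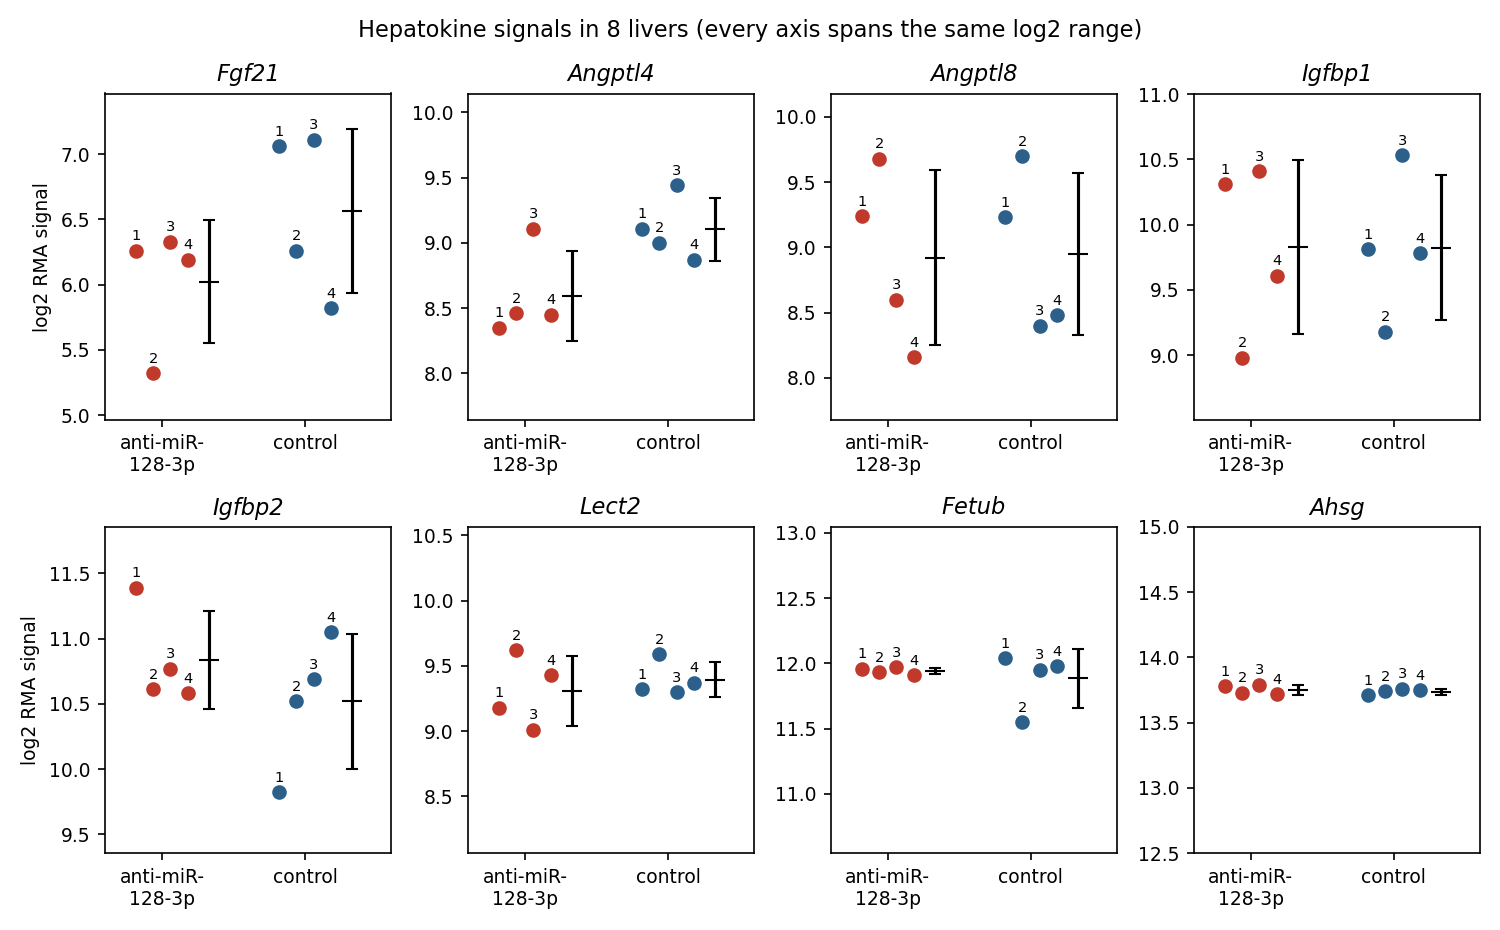
Log2 RMA signal of the 8 measured hepatokine genes in 4 treated (red) and 4 control (blue) livers, with replicate numbers, and beside each group its mean and SD. Every axis spans the same log2 range, so that the spread of Angptl8 and Igfbp1 within both groups can be set against the narrow spread of Ahsg. Angptl4 is the gene with 3 treated livers below all control livers.

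**Figure D2:**
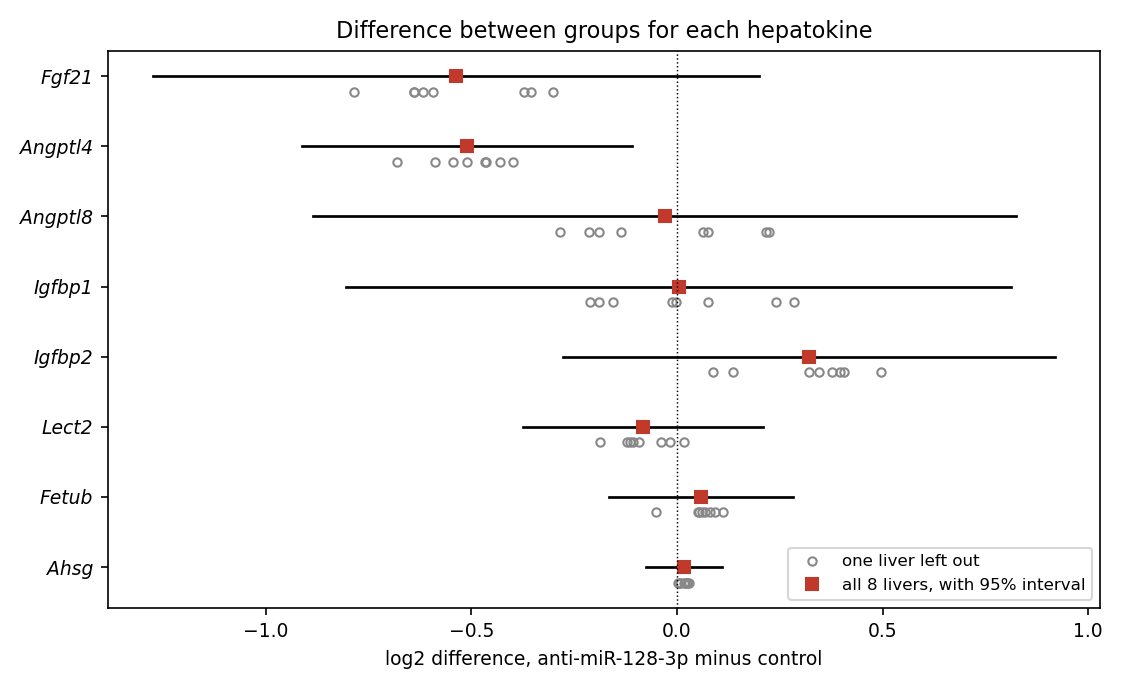
Log2 difference, treated minus control, for each hepatokine (squares) with its 95% interval from limma, and the differences with 1 liver left out (open circles). The interval of Angptl4 is the only one of the 8 that lies wholly on one side of 0, from -0.91 to -0.11, before adjustment for the number of genes tested.

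The spread between livers of the same group differed widely over the set. The within-group SD was 0.648 for Angptl8, larger than that of 99.5% of the genes tested, 0.612 for Igfbp1 (99.4%), 0.557 for Fgf21 (99.1%) and 0.451 for Igfbp2 (98.4%). It was 0.299 for Angptl4 (95.4%), 0.213 for Lect2 (91.0%) and 0.158 for Fetub (82.2%). Ahsg stood at the other end with 0.0317, larger than 1.96% of genes. These percentages are over all genes, whose median signal lay below the negative controls' 95th percentile, and genes of like signal were not compared. The 5 genes with the widest spread respond to feeding, fasting or insulin, as known from mouse studies. The feeding state of the mice at death is not in the labels, and its part in the spread was not tested.

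Pairs of hepatokines were compared over the 8 livers. Among the 28 pairs, Lect2 and Igfbp1 ran most nearly opposite to each other. The livers with the highest Lect2, treated liver 2 and control liver 2, had the lowest Igfbp1, and treated livers 1 and 3, with the lowest Lect2, had Igfbp1 signals above 10. Over the 8 livers Pearson's r was -0.90 (exact permutation p = 0.0035, adjusted p = 0.0979 over the 28 pairs) and Spearman's rho was -0.93 (exact permutation p = 0.0022, adjusted p = 0.0625), so the pair did not pass after adjustment. Without the 2 livers farthest from the median of Lect2, r was -0.87, and for deviations from the group means it was -0.92. Each of these genes had the same order of replicate numbers in both groups. The permutation takes the 8 livers as independent, so its p may be too small if equal numbers mark a shared condition.

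Other pairs were weaker. For each, the 2 farthest livers are those farthest from the median of the gene named first. Leaving them out narrows that gene's range, which can by itself lower r. Ahsg and Igfbp2 had r = 0.70 (exact permutation p = 0.0439, adjusted p = 0.363) and rho = 0.81 (exact permutation p = 0.0218, adjusted p = 0.203), and r = 0.70 without the 2 farthest livers, although Ahsg itself moved very little. Ahsg and Lect2 had r = -0.71 (exact permutation p = 0.0465, adjusted p = 0.363) and rho = -0.69 (exact permutation p = 0.0694, adjusted p = 0.388). Their r was -0.13 without the 2 farthest and -0.70 for deviations from the group means. Fgf21 and Angptl4, both induced by fasting, had r = 0.69 (exact permutation p = 0.0566, adjusted p = 0.363) and rho = 0.67 (exact permutation p = 0.0831, adjusted p = 0.388), and 0.38 without the 2 farthest. Angptl8 and Igfbp1, a gene that insulin raises and one that it lowers, had r = -0.58 (exact permutation p = 0.137, adjusted p = 0.549) and rho = -0.45 (exact permutation p = 0.267, adjusted p = 0.624), but 0.15 without the 2 farthest. Fgf21 and Igfbp1 had r = 0.62 (exact permutation p = 0.100, adjusted p = 0.468) and rho = 0.83 (exact permutation p = 0.0154, adjusted p = 0.203), and r was 0.06 without the 2 farthest.

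**Figure D3:**
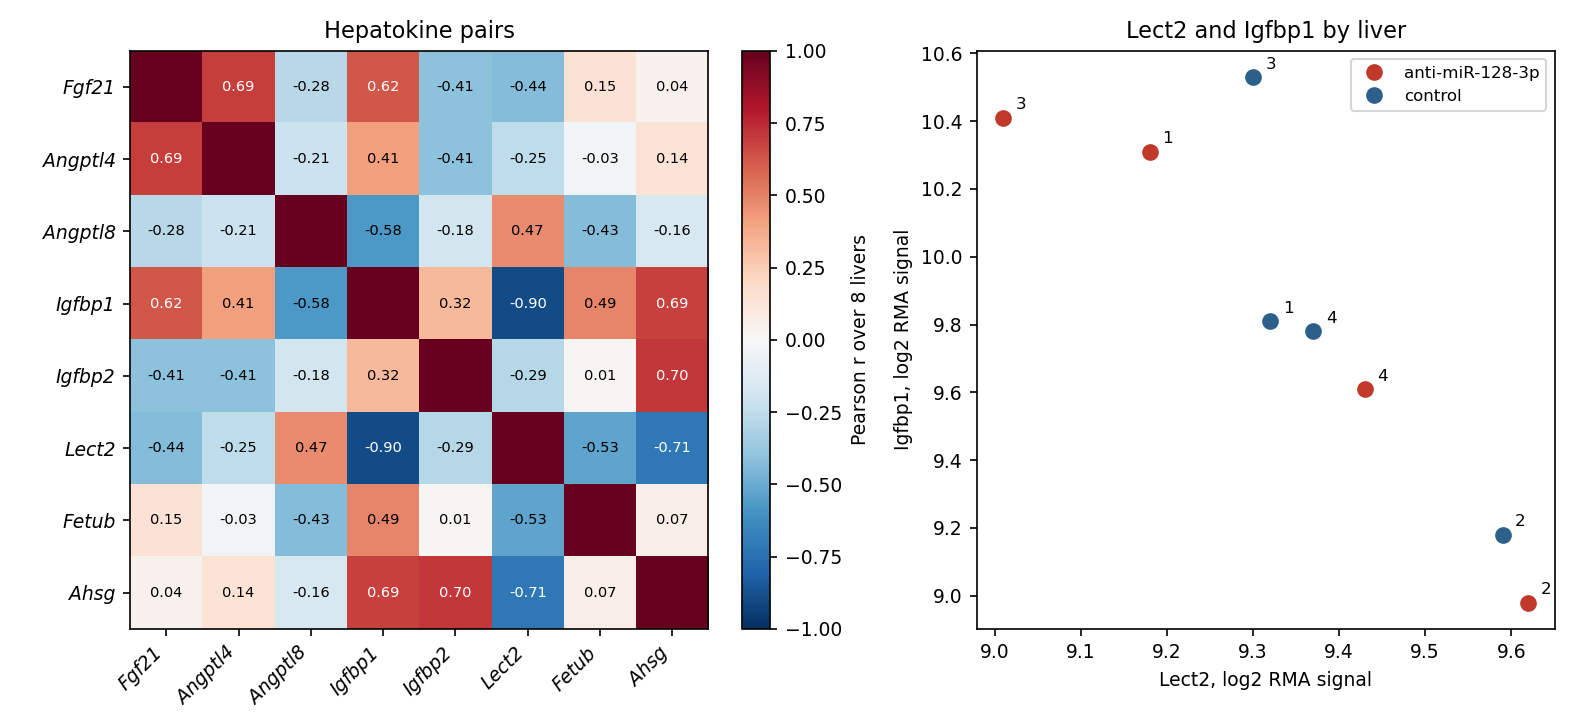
Left, Pearson's r between each pair of hepatokines over the 8 livers, from -1 (blue) to 1 (red). Right, Igfbp1 against Lect2, both as log2 RMA signals, for treated (red) and control (blue) livers with replicate numbers; the points of both groups descend from treated liver 3 (Lect2 9.01, Igfbp1 10.41) to treated liver 2 (Lect2 9.62, Igfbp1 8.98).

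For each hepatokine the 3 most similar genes were taken by Pearson's r over the 8 livers among 11311 protein-coding genes whose mean signal reached the median of all genes. They were picked as the highest of many, so the r values only describe these livers. Several of the genes so picked stayed under the negative controls' 95th percentile on all 8 arrays, so part of their signal may be background. These were Il13, Rad52, Krt33a, Umad1, Get1, Acad9, Unc50, Spire2, Rtn4rl2, Cyth2, Cyp4f16, Irf5, B3gnt3, Crebrf and Suz12. Angptl4 ran closest to Hnf4a, the gene of a nuclear receptor that sets hepatocyte identity, with r = 0.96. Hnf4a signals were 10.12, 10.32, 10.49 and 10.22 in treated livers, against 10.56, 10.49, 10.71 and 10.36 in control livers. As for Angptl4, treated liver 3 was the highest of its group and control liver 3 the highest of all 8. Il13 (r = 0.95) and the cytochrome P450 gene Cyp2j5 (r = 0.94) came next.

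Fetub was closest to Egfr, the gene of the epidermal growth factor receptor (r = 0.97, Spearman's rho = 0.76). Egfr had 12.00, 11.63, 11.71 and 11.63 in treated livers, against 11.93, 10.40, 11.62 and 11.96 in control livers. Control liver 2 was by far the lowest for both genes, and the rank correlation, which weighs that liver less, was lower than r. Rad52 (0.97) and Pnp (0.96) followed for Fetub and were lowest in the same liver.

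Igfbp1 was closest to Krt33a (r = 0.99), Apoa1 (0.96) and Umad1 (0.96). Krt33a and Umad1 were dim, at 5.02 to 5.21 and 5.44 to 5.65 over the 8 livers. Apoa1 encodes the main protein of high-density lipoprotein, and its 8 livers stood in the same order as for Igfbp1 (rho = 1), although its range was small. Apoa1 had 13.13, 13.05, 13.16 and 13.10 in treated livers, against 13.12, 13.08, 13.19 and 13.12 in control livers. Lect2 was closest to Zdhhc4 (0.98), Get1 (0.98) and Acad9 (0.97). Angptl8 was closest to Unc50 (0.96), to Cbs (0.91), the gene of cystathionine beta-synthase, and to Rabgap1l (0.90). Fgf21 was closest to Spire2 (0.96), Rtn4rl2 (0.96) and Cyth2 (0.95). Igfbp2 was closest to Cyp4f16 (0.97), Irf5 (0.96) and B3gnt3 (0.93). Ahsg was closest to Crebrf (0.93), to Mug1 (0.93), the gene of a plasma protease inhibitor, and to Suz12 (0.91).

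The pathways around these hormones were described by gene lists. None of the genes in them passed limma over all genes, so each is given by its difference. Of all genes, 3.37% were lower and 4.26% higher at an unadjusted limma p under 0.05. Without overlap between groups, 1.89% were lower and 2.52% higher. The lists were chosen with earlier results of these data known, so counts from them are no independent support. Of the 42 genes named from these lists, 13 stayed under the negative controls' 95th percentile on all 8 arrays, as Fgf21 did, so part of their signal may be background: Angptl6, Asns, Atf3, Axin2, Fgfr1, Gpnmb, Igf1r, Igfbp3, Igfbp5, Lpl, Nupr1, Tek and Tie1. With 1 liver left out, 25 of the 42 differences moved by over 1.5 times or turned sign, in Akt2, Atf3, Atf4, Atf5, Axin2, Cst3, Fgfr4, Foxo1, Ghr, Gpihbp1, Igf1, Igf1r, Igfals, Igfbp3, Igfbp5, Klb, Lpl, Met, Nupr1, Oat, Pck1, Ppargc1a, Slc1a2, Spp2 and Tie1. The receptors and co-receptors (13 measured of 14 listed) were higher for 4 and lower for 9 genes, with a median difference of -0.06 on the log2 scale (0.0022 without control liver 1) and 1 gene at an unadjusted limma p under 0.05. Klb, the beta-klotho gene, had a log2 difference of -0.03 ± 0.21, with signals of 8.15, 8.67, 7.75 and 7.75 in treated livers, against 8.36, 8.19, 8.14 and 7.74 in control livers. Fgfr1 was higher by 0.15 ± 0.07 and Fgfr4, the main FGF receptor gene of hepatocytes, lower with a difference of -0.17 ± 0.09. Of the LECT2 receptor genes, Met had -0.06 ± 0.08 and Tie1, an endothelial gene, -0.14 ± 0.08. Tek, the endothelial angiopoietin receptor gene, had the list's smallest p and a difference of -0.33 ± 0.12 (limma adjusted p = 0.571). Sinusoidal endothelial markers, with Tek itself among the 11, were lower in 10 of 11, with a median of -0.24. Their scores were -0.29 to 0.10 in treated and -0.20 to 0.34 in control livers. Tek enters these values, so they are not separate from it. The part of endothelial cells in Tek and Tie1 was not tested.

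Genes of the lipoprotein lipase system, on which ANGPTL4 and ANGPTL8 act, were lower in 7 of the 8 measured (11 listed), with a median of -0.17 on the log2 scale and 2 genes at an unadjusted limma p under 0.05. Without treated liver 1 the median was -0.07. Lpl itself was higher, but under the negative controls' 95th percentile on all 8 arrays, at 7.50, 6.32, 6.84 and 6.32 in treated livers, against 5.76, 6.66, 6.10 and 6.36 in control livers. Its difference was 0.52 ± 0.28 (limma adjusted p = 0.725), and 0.27 without treated liver 1, the liver with the highest Kupffer cell and macrophage score. Macrophages transcribe Lpl, and those markers were higher in 11 of 12 (median 0.45, scores of -0.33 to 0.73 in treated and -0.90 to 0.10 in control livers); their part in it was not tested. Apoa5, whose product helps lipoprotein lipase, had 9.33, 10.06, 9.68 and 9.71 in treated livers, against 9.65, 10.46, 10.25 and 10.35 in control livers. The log2 difference was -0.48 ± 0.20 (limma adjusted p = 0.615). Lmf1, the lipase maturation factor gene, did not overlap between groups, at 7.96 to 8.10 in treated and 8.17 to 8.47 in control livers (-0.24 ± 0.07, limma adjusted p = 0.457). Gpihbp1, the capillary anchor of the enzyme, had -0.16 ± 0.08.

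The insulin-like growth factor system around Igfbp1 and Igfbp2 was lower for 10 of 13 genes measured (14 listed), with a median of -0.08 and 0 at an unadjusted limma p under 0.05. Igf1 had -0.12 ± 0.10, Igfals, the gene of the acid-labile subunit that holds IGF1 in plasma, -0.27 ± 0.14, and the growth hormone receptor gene Ghr -0.05 ± 0.09. The other binding protein genes had -0.12 ± 0.07 for Igfbp3, the neighbour of Igfbp1 on chromosome 11, and -0.42 ± 0.22 for Igfbp5, the neighbour of Igfbp2 on chromosome 1. Igfbp5 was at 5.56, 5.74, 5.47 and 5.80 in treated livers, against 5.72, 6.79, 5.72 and 6.02 in control livers, and its difference was -0.17 without control liver 2. Igf1r had 0.13 ± 0.07.

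Genes of insulin signalling and of the response through FoxO1, to which Igfbp1 belongs, divided into 4 higher and 7 lower of 11 measured (14 listed). Their median was -0.04, and 0.08 without control liver 4. The list holds signalling genes such as Akt2 and Foxo1 itself, so it is no measure of the FoxO1 response alone. Foxo1 had -0.03 ± 0.12, Pck1, the gluconeogenic enzyme gene, 0.11 ± 0.10, Akt2 -0.05 ± 0.06 and Ppargc1a 0.20 ± 0.20. Trib1, a pseudokinase gene linked to plasma triglyceride in humans, was the 1 gene of the list at an unadjusted limma p under 0.05. It had 6.84, 7.20, 7.34 and 6.72 in treated livers, against 7.71, 7.56, 7.67 and 7.36 in control livers, without overlap. The difference was -0.55 ± 0.14 (limma adjusted p = 0.345).

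The integrated stress response, the ATF4 programme that raises Fgf21, Gdf15 and Trib3, was higher for 12 and lower for 4 of its 16 genes, with a median of 0.04. Of the 16 genes, 13 averaged below the negative controls' 95th percentile. Atf4 had a difference of 0.05 ± 0.08, Atf3 of 0.09 ± 0.10 and Atf5 of 0.16 ± 0.18, and none of them passed. Asns, the asparagine synthetase gene and the 1 gene of the list at an unadjusted limma p under 0.05, had dim signals of 6.45, 5.55, 6.06 and 5.23 in treated livers, against 5.27, 4.85, 4.90 and 5.11 in control livers. Treated livers 1, 2 and 3 were above all control livers, and the difference was 0.79 ± 0.24 (limma adjusted p = 0.453). Nupr1, another stress-induced gene, had 0.26 ± 0.12. These genes were all among the 12 higher. They were named for the smallest p in the list, or in advance for Atf4, and do not stand for the rest of it. Trib3, outside the 42 named genes, was among the 4 lower with -0.02 ± 0.10, and was under that percentile on all 8 arrays. Fgf21, whose promoter window holds the letters TGATGNAA, had -0.54 ± 0.33. Such a match is not evidence of binding, and matches in the genes of this list were not analysed. Asns, Nupr1 and Fgf21 did not pass over all genes, and all were under that percentile on all 8 arrays.

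PPAR-alpha, the fatty acid receptor that induces Fgf21 and Angptl4 in fasting, had a list that was lower for 11 of 12 genes measured (15 listed), with a median of -0.20 against -0.0017 for all genes. Without control liver 2 the median was -0.11. That direction was known from these livers when the list was chosen and is no independent support. Of the list, 4 genes were lower at an unadjusted limma p under 0.05, and none was higher. Ppara itself had 9.58, 9.72, 9.73 and 9.63 in treated livers, against 9.86, 9.92, 9.91 and 9.63 in control livers (-0.17 ± 0.07, limma adjusted p = 0.641). Creb3l3, the gene of CREBH, a liver transcription factor that acts with PPAR-alpha on Fgf21 in mice, had 9.04, 9.24, 9.16 and 9.26 in treated livers, against 9.49, 9.32, 9.48 and 9.38 in control livers. The groups did not overlap, and the difference was -0.24 ± 0.06 (limma adjusted p = 0.345). Plin2, a lipid droplet coat gene, had -0.29 ± 0.11 and Vnn1, the pantetheinase gene, -0.91 ± 0.23. These 4 genes were named for the smallest p in the list and do not stand for the rest of it. Fgf21 and Angptl4 had differences of -0.54 and -0.51, and the part of PPAR-alpha in them was not tested.

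Other liver-secreted factors not among the 9, 14 measured of 17 listed, divided into 7 higher and 7 lower with a median of -0.01. At an unadjusted limma p under 0.05, 2 were higher and 3 lower. Inhbe, the gene of the activin E subunit, a hepatokine that limits fat breakdown in adipose tissue, had 9.12, 9.68, 9.39 and 9.51 in treated livers, against 11.04, 11.06, 9.87 and 9.81 in control livers. Control livers 1 and 2 were far above the rest, while control livers 3 and 4 lay just above the treated range. The difference was -1.02 ± 0.31 (0.493-fold, limma adjusted p = 0.451). Enho, the adropin gene, had 7.82, 7.21, 7.30 and 7.33 in treated livers, against 7.08, 6.61, 7.12 and 6.87 in control livers, a difference of 0.49 ± 0.15 without overlap (limma adjusted p = 0.473). Angptl6 had a difference of -0.13 ± 0.04 and Gpnmb, which macrophages also express, one of 0.31 ± 0.10, both without overlap, and both were under the negative controls' 95th percentile on all 8 arrays.

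The other genes with cystatin domains, relatives of the fetuins, had 3 higher and 4 lower of 7 measured (8 listed), with a median of -0.03 and 0 at an unadjusted limma p under 0.05. Hrg had -0.11 ± 0.06, Cst3, the cystatin C gene, -0.20 ± 0.11, Cstb 0.05 ± 0.04 and Spp2 -0.06 ± 0.06. The pericentral Wnt list, chosen because Lect2 is a beta-catenin target, had 1 higher and 8 lower of 9 measured (13 listed), with a median of -0.03 and 0 at that level. Axin2, the feedback gene of the pathway, had -0.13 ± 0.11, Oat -0.32 ± 0.21, Slc1a2 -0.22 ± 0.13 and Cyp2e1 -0.04 ± 0.04. Oat had -0.10 without treated liver 3 and Slc1a2 had -0.12 without control liver 3. Like Lect2 itself (-0.08 ± 0.13), none of them passed.

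**Figure D4:**
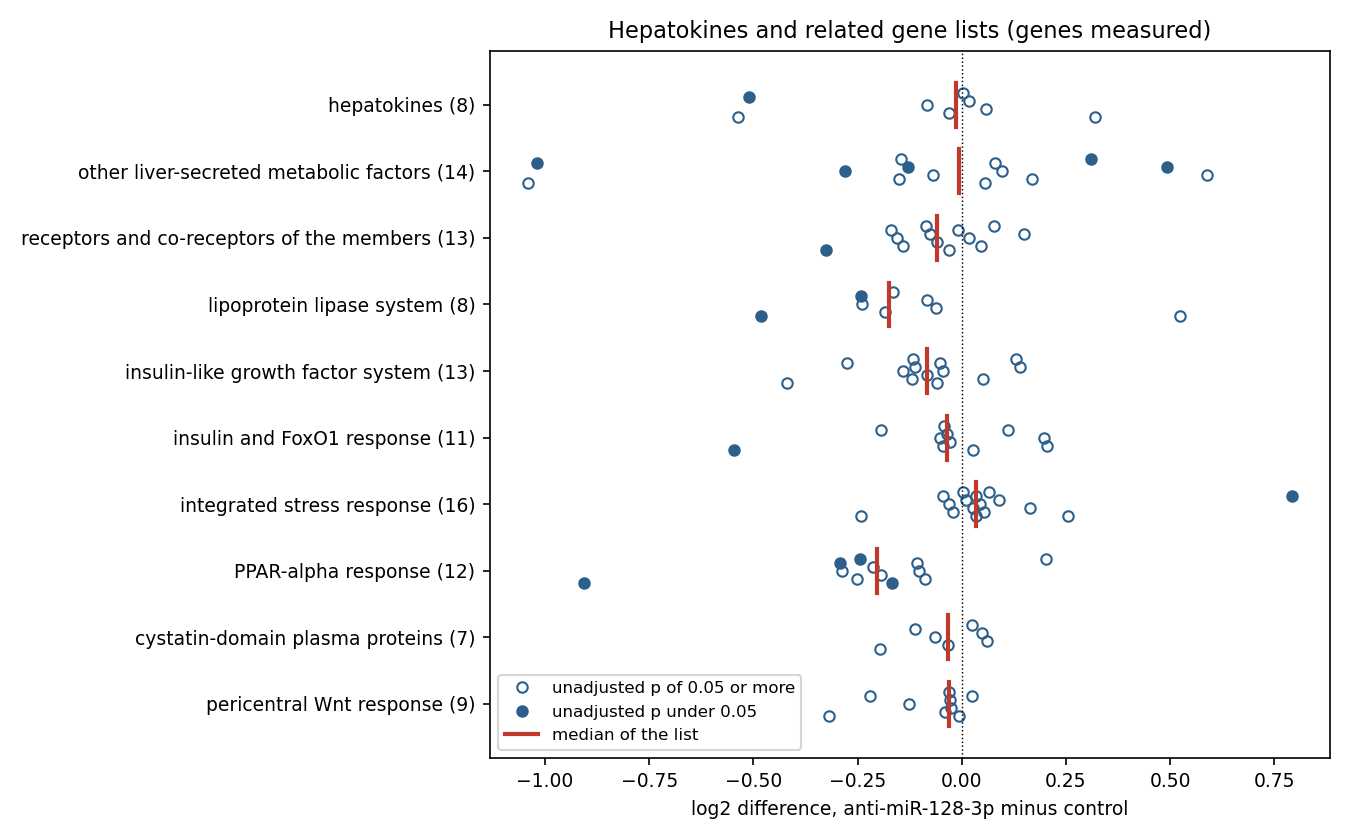
Log2 difference, treated minus control, of each measured gene (circles) in the hepatokine set and 9 related lists, with the number of genes in brackets, filled circles for an unadjusted limma p under 0.05 and a red bar at the list median. The hepatokines spread around 0 with Fgf21 (-0.54) and Angptl4 (-0.51) to the left. The PPAR-alpha list has its median at -0.20. No gene shown passed the adjustment over all genes.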

How the data were processed

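Liver RNA of 8 mice was measured on 8 Affymetrix whole-transcript arrays, 4 treated and 4 control. The deposited values are log2 signals made with RMA, which corrects background, normalizes quantiles and summarises probes, per the submitters' processing notes. The sources used here do not give RMA's version, build or filters. Of 72688 rows, 6732 control rows were left out, and of 65956 probe sets 31095 named exactly 1 gene after symbols were updated through a RefSeq table of GRCm38.p6 used for names and gene order. They gave 30637 genes, 361 with several probe sets, and of several the brightest by its mean over the 8 arrays was kept. With quantile normalization a change shared by most genes would not be seen, and no detection calls accompany the values.

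Groups were compared by limma (lmFit, then eBayes, version 3.58.1, under R 4.3.3), two-sided and with no covariate, with Benjamini-Hochberg adjustment over all genes. Exact permutation and pair correlations used scipy 1.17.1 in Python 3.11.15, with pandas 2.3.3, numpy 2.4.6 and matplotlib 3.10.9. Differences are treated minus control, and errors on them are limma's SE. Steps were tested on simulated data. Named genes are all members, up to 4 genes of each list by smallest p, a preset group of pathway genes, and the 3 genes most alike to each member, while marker genes enter as list values. Neighbours on the chromosome are named for position. The members and lists were chosen with earlier results of these data known. Replicate numbers were not used to pair the arrays, since over all genes the same-numbered arrays' deviations correlated at -0.12 to -0.02. Igfbp1 and Lect2 still had the same order of numbers in both groups. Whether equal numbers mark a shared condition was not tested. The number of arrays limits the precision.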

Additional observations from a re-analysis of the deposited data

Results flagged for a closer look

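Dixon's test for a single distant sample was applied to 50 genes in 2 groups of 4 livers, 100 groups in all. It singled out a liver in 10 of these groups, where chance gives about 1 in 20. Among the hepatokines these were treated liver 2 for Fgf21, at 5.32 with the nearest treated liver at 6.19, and treated liver 3 for Angptl4, at 9.11 with the nearest at 8.46. Among the related genes, treated liver 2 was lowest for Atf3 (5.62, nearest 5.98) and highest for Ghr (9.75, nearest 9.55). Treated liver 4 was highest for Fgfr1 (6.65, nearest 6.49) and Tie1 (6.79, nearest 6.69), and treated liver 1 lowest for Igfbp3 (6.47, nearest 6.63). Control liver 2 was highest for Gpihbp1 (7.89, nearest 7.57) and Lmf1 (8.47, nearest 8.20), and control liver 3 for Angptl6 (7.39, nearest 7.34).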

How the results depend on the processing

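The comparison was repeated under 16 other settings: weighted arrays, robust moderation with a trend, genes dimmer than the median or the 25th percentile left out, probe sets averaged per gene, quantile normalization, centring on array medians, the replicate block, and each liver left out. Genes called at an adjusted p of 0.05 numbered 0, except 1 (Irgm1) without control replicate 4, so the range over livers left out was 0 to 1. With exact permutation as a further test, the members had 136 values, of which 122 kept their sign, and none passed (smallest adjusted p 0.228, for Angptl4). The 14 reversals were in differences near 0. Igfbp1 had -0.0825 with array weights, -0.00774 with centring and -0.0126 with quantile normalization. With 1 liver left out the lowest and highest values were -0.21 and 0.29 for Igfbp1, -0.28 and 0.22 for Angptl8, -0.0516 and 0.11 for Fetub, and -0.19 and 0.0163 for Lect2. Of the 670 values of 42 related genes 8 reversed, in Foxo1 (-0.14 to 0.0399), Klb (-0.23 to 0.0800), Met (-0.11 to 0.0022) and Ppargc1a (-0.0142 to 0.35), and the smallest adjusted p was 0.244. The cause was not tested. Over all genes no array correlated best with its own number, a check that does not cover single genes. With the replicate block Angptl4 had -0.51 (limma adjusted p = 0.464) and 0 genes were called. The block lowered the unadjusted limma p of Angptl4 from 0.0183 to 0.000846 and that of Fgf21 from 0.133 to 0.0562. It raised that of Igfbp2 from 0.256 to 0.358. Whether equal numbers mark a shared condition was not tested. Signals near the negative controls, as for Fgf21, limit what their differences show.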
